A study of Mus musculus with 5 samples.

Results

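Interferon-stimulated genes are the genes that a cell switches on when it senses interferon. A list of 43 of them was followed by name through the molecule counts of every library, and a gene absent from a file counted 0. The files held 19736 genes in all, and 18876 had a molecule in the cells retained here. Of the 43 genes, 42 had a molecule, and Mx1 was in no file. The cells came from the livers of male wild-type mice that had surgery when 9 weeks old and were sampled 2 weeks afterwards. Low-speed and density-gradient centrifugation had depleted hepatocytes, red blood cells and dead cells. The 2 sham libraries came after sham surgery and the 3 pIVCL libraries after partial ligation of the inferior vena cava, which obstructs venous outflow from the liver and models its congestion. Sham 1, sham 2 and pIVCL 1 carried the batch label 2021.3, and pIVCL 2 and pIVCL 3 the label 2021.7, so within 1 batch only pIVCL 1 can be set against sham. The labels describe each library as cells from a mouse and do not say that the mice were different ones. P-values therefore measure the spread between these libraries.

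Type I interferons bind the IFNAR receptor, whose kinases activate a complex that holds STAT2 and IRF9 and binds the interferon-stimulated response element (ISRE) in promoters. Interferon gamma acts through its own receptor on promoters with the gamma-activated sequence (GAS), and some genes answer to both. The products of the 43 genes conjugate or remove the ubiquitin-like protein ISG15, bind or degrade foreign RNA, sense nucleic acids, restrict virus entry or release, or carry the response further as transcription factors. In the liver, sinusoidal endothelial cells, Kupffer cells and dendritic cells are known to respond to interferon.

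Of the 43 genes, 34 had a promoter in the RefSeq table used here (build GRCm38.p6), covering 250 bases before to 50 bases after a start. The ISRE core, GAAA followed after any 2 bases by GAAA and searched on both strands, occurred in 19 of these 34, against 3.99% of 27025 genes in the table. The palindromic GAS letters TTCNNNGAA occurred in 9 of 34, against 9.55% of genes. The genes without an entry were Parp9, Usp18, Ifi27, Rtp4, Mx1, Zbp1, Oas2, Dhx58 and Parp14. A match describes letters in a window and is no evidence of binding. The promoters below, 5′ to 3′ in the direction of the gene, belong to Ifit3, which was higher in pIVCL endothelial cells, to Gbp3, whose difference was not the same in endothelial and Kupffer cells, and to Bst2 and Oas1a, which went opposite ways with the batch label; the last 3 were chosen after their values were seen. Capitals mark ISRE and GAS letters, which overlap each other in Bst2.
Ifit3, chr19:34583279-34583578, plus strand: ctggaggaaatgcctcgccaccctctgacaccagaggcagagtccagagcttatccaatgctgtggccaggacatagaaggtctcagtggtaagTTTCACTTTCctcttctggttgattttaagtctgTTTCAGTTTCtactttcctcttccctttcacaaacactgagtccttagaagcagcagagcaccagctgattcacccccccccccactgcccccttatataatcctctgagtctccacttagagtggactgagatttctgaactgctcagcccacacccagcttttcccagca
Gbp3, chr3:142559794-142560093, plus strand: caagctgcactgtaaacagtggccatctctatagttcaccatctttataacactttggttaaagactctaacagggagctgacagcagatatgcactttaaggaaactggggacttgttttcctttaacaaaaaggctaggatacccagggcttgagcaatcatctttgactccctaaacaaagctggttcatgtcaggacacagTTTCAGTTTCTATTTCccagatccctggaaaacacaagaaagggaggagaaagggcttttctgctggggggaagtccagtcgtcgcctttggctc
Bst2, chr8:71537423-71537722, minus strand: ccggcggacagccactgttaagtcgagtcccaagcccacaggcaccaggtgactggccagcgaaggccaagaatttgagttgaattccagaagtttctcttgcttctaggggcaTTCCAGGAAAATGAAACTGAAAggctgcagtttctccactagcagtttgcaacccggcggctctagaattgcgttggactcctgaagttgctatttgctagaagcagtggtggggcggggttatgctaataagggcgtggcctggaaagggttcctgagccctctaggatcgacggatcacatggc
Oas1a, chr5:120907476-120907775, minus strand: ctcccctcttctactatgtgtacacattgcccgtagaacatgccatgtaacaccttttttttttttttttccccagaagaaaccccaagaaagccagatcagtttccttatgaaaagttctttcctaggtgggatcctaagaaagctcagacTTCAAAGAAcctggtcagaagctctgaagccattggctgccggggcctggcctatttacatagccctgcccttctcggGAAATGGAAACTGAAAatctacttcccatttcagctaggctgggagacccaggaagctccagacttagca

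Each of these 4 windows held 2 ISRE cores. The first began 156 bases before the start in Ifit3, 130 in Bst2, 45 in Gbp3 (the first of 2 starts listed) and 20 in Oas1a. Bst2 and Oas1a also held 1 GAS match each, whereas the promoter of Ifi44, on chromosome 3, held neither motif.

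The libraries in the order sham 1, sham 2, pIVCL 1, pIVCL 2 and pIVCL 3 held 12448260 to 30523228 molecules. The median per cell was 5125 to 5416 in sham and 2439.5 to 4226.5 in pIVCL. After filtering and removal of likely doublets 16672 of 19815 cells were retained, and grouped into 29 clusters, all but 5 of them named by marker genes, with the 43 genes and the other listed pathway genes kept out of the clustering. Every pair of libraries shared 8 to 30 cell numbers (0.299 to 0.897% of the smaller library), with no identical profiles. Classes with at least 20 cells in every library were tested: endothelial cells, Kupffer cells, stellate cells with fibroblasts, conventional dendritic cells, a monocyte class, NK cells with ILC1, and T cells. In endothelial cells the summed endothelial list was 234 to 306 molecules per 10000, and the Kupffer list 0.931 to 2.61. In Kupffer cells the Kupffer list was 342 to 436 and the endothelial list 7.84 to 12.5. The monocyte class went partly against its name, with 48.1 to 61.7 for the monocyte list and 88 to 134 for the Kupffer list.

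Among the 7 tested classes the summed level of the 43 genes was highest in Kupffer cells in 4 libraries and in the monocyte class in pIVCL 3. In endothelial cells it was 46.5 and 55.8 molecules per 10000 in the sham libraries and 59.3, 75.8 and 76.4 in the pIVCL libraries. All 3 pIVCL libraries were above both sham libraries, by a small margin for pIVCL 1 and a large one for the pair of batch 2021.7. In Kupffer cells the values were 60.6 and 68.9 in sham and 65.2, 79.3 and 81.4 in pIVCL, so pIVCL 1 lay between the sham libraries. In stellate cells with fibroblasts they were 45.5 and 39.5 in sham and 48.9, 59.2 and 62.7 in pIVCL. The groups did not overlap, and again pIVCL 1 was nearest to sham. Means ± SD (n = 2 sham and 3 pIVCL) were 51.1 ± 6.61 and 70.5 ± 9.69 in endothelial cells, 64.8 ± 5.83 and 75.3 ± 8.84 in Kupffer cells, and 42.5 ± 4.21 and 57.0 ± 7.16 in stellate cells with fibroblasts. No test was made of a sum over chosen genes.

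**Figure D1:**
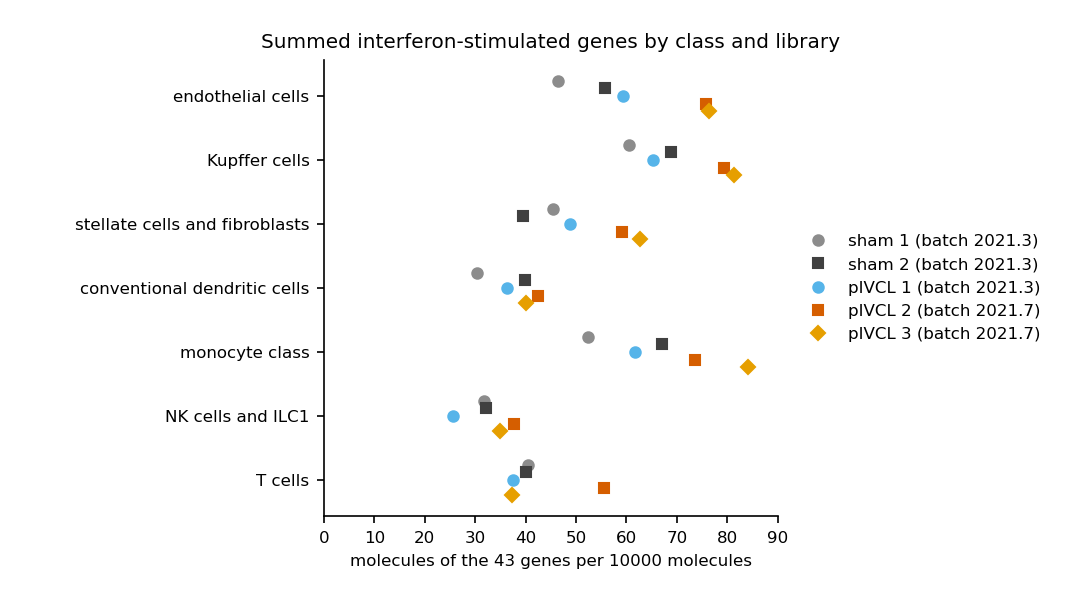
Molecules of the 43 genes per 10000 molecules (x axis) in the 7 tested classes (y axis), 1 point per library, with sham in grey, pIVCL 1 in blue and the pIVCL libraries of batch 2021.7 in orange. In endothelial cells, Kupffer cells and stellate cells with fibroblasts the 2 orange points lie above all others, and pIVCL 1 lies at 59.3, 65.2 and 48.9, close to or between the sham libraries.

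One gene, Ifitm3, which blocks virus entry at endosomal membranes, supplied much of each sum: 26.6 to 29.5% of it in endothelial cells, 22.0 to 24.9% in Kupffer cells and 33.4 to 41.1% in stellate cells with fibroblasts. Without it the endothelial sums were 33.7 and 40.8 in sham against 41.8, 55.7 and 55.7 in pIVCL, in the same order. For stellate cells with fibroblasts the sums without Ifitm3 were 29.1 and 26.3 in sham and 28.8, 37.3 and 40 in pIVCL, and pIVCL 1 then lay between the sham libraries. Thinning each cell to 1000 molecules left the order as it was in endothelial cells, at 47 and 56.1 in sham and 59.5, 78.5 and 78.6 in pIVCL. The order changed for stellate cells with fibroblasts, where the thinned sums were 51.8 and 44.3 in sham and 50.1, 59.5 and 65 in pIVCL, with pIVCL 1 below sham 1. The median endothelial cell carried 4 and 5 molecules of the 43 genes per 1000 in sham and 5, 7 and 7 in pIVCL.

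In endothelial cells 2 of the 43 genes rose with pIVCL and none fell. They were Ifit3, an RNA-binding protein that works with IFIT1, and Usp18, the protease that removes ISG15 from proteins and restrains IFNAR signalling. Of the 43 genes 40 had enough molecules to be tested, and 2 of 40 (5%) were called higher, against 2.51% of the 11347 genes tested (285 genes). None was called lower, against 2.63% (298 genes). At an unadjusted p under 0.05 the counts were 18 higher and 2 lower of 40, against 12% of all genes higher and 11.7% lower. DESeq2 called 9 higher (22.5%) and 1 lower (2.5%), against 4.99 and 4.33% of all genes.

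Ifit3 was at 72.5 and 79.6 CPM (TMM-scaled counts per 1000000 molecules) in the sham libraries and at 111, 155 and 125 CPM in pIVCL 1, 2 and 3. These levels rested on 455 to 1096 molecules per library, and all 3 pIVCL libraries were above both sham libraries. The difference was 0.78 ± 0.16 on the log2 scale (SE, 1.72-fold, adjusted p = 0.0346). Reads of Ifit3 and its near copy Ifit3b can be hard to tell apart, so the split between these genes is uncertain. Usp18 was at 10.7 and 13.8 CPM in sham and 19.7, 21.6 and 25.3 CPM in pIVCL, from 92 to 160 molecules per library. The groups did not overlap, and the difference was 0.85 ± 0.20 (log2, 1.80-fold, adjusted p = 0.0466).

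Both calls were close to the threshold of 0.05 and depended on which libraries entered. Without pIVCL 1 the adjusted p of Ifit3 was 0.00148. It was 0.306 without sham 1, 0.193 without sham 2, 0.0840 without pIVCL 2 and 0.0875 without pIVCL 3. For Usp18 it was 0.00708 without pIVCL 1, and 0.410, 0.183, 0.118 and 0.115 without sham 1, sham 2, pIVCL 2 and pIVCL 3. Where a sham library was left out, the lone sham library was assumed to vary like the pIVCL libraries. The estimates themselves stayed between 0.64 and 0.89 for Ifit3 and between 0.67 and 1.03 for Usp18.

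The other members of the ISG15 pathway in endothelial cells did not pass. Isg15, the ubiquitin-like modifier itself, was at 22.7 and 29.6 CPM in sham and 40.6, 97.9 and 69.7 CPM in pIVCL. The groups did not overlap, but the pIVCL libraries ranged widely, and the difference of 1.41 ± 0.36 (log2) had an adjusted p of 0.0747. Trim25, a ubiquitin ligase that also acts on the RNA sensor RIG-I, differed by 0.43 (adjusted p = 0.143), and Herc6, the ligase that attaches ISG15 in mice, by 0.20.

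Among the IFIT proteins, Ifit1, which binds foreign RNA caps, was at 34.5 and 43.6 CPM in sham and 61.0, 89.0 and 56.6 CPM in pIVCL (0.83 ± 0.22, adjusted p = 0.0747). Ifit2 was the exception of this family, at 92.7 and 114 CPM in sham and 75.8, 83.8 and 73.6 CPM in pIVCL, every pIVCL library being below sham (-0.41 ± 0.14, adjusted p = 0.123). The transcription factors also parted. Irf7, which amplifies interferon production, was at 23 and 30.6 CPM in sham and 42.8, 83.4 and 125 CPM in pIVCL (1.63 ± 0.45, adjusted p = 0.0983). Irf1, a factor induced by interferon gamma and by inflammatory signals, was at 237 and 326 CPM in sham and 193, 178 and 152 CPM in pIVCL (-0.69 ± 0.17, adjusted p = 0.0543). Irf9 and Stat2, which belong to the ISRE-binding complex, differed by 0.16 and -0.11. Irf7 and Isg15 thus had the highest estimates of the 40 genes and Irf1 the lowest, and none of the 3 passed.

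Of the oligoadenylate synthetases and their relatives, which answer to double-stranded RNA, Oasl2 was at 84.4 and 119 CPM in sham and 146, 195 and 189.7 CPM in pIVCL (0.80 ± 0.19, adjusted p = 0.0523), and Oasl1 differed by 1.40 ± 0.43 (adjusted p = 0.107). Oas2 and Oas3 had 2 to 11 and 1 to 7 endothelial molecules per library and were not tested. All 5 nucleic acid sensors had estimates above 0, from 0.08 for Eif2ak2, the kinase PKR, to 0.98 for Zbp1, with Ifih1 (MDA5) at 0.33 and Ddx58 (RIG-I) at 0.44. Among the 12 tested genes of the mixed antiviral group, Bst2 (tetherin, which holds budding virus at the cell surface) and Ifi44 had the highest estimates, 1.19 ± 0.32 and 1.09 ± 0.32 (adjusted p = 0.0816 and 0.102), and 9 were above 0. The interferon-inducible GTPases, which attack the vacuoles of intracellular pathogens, had the narrowest range, 0.05 to 0.39 over 5 genes.

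**Figure D2:**
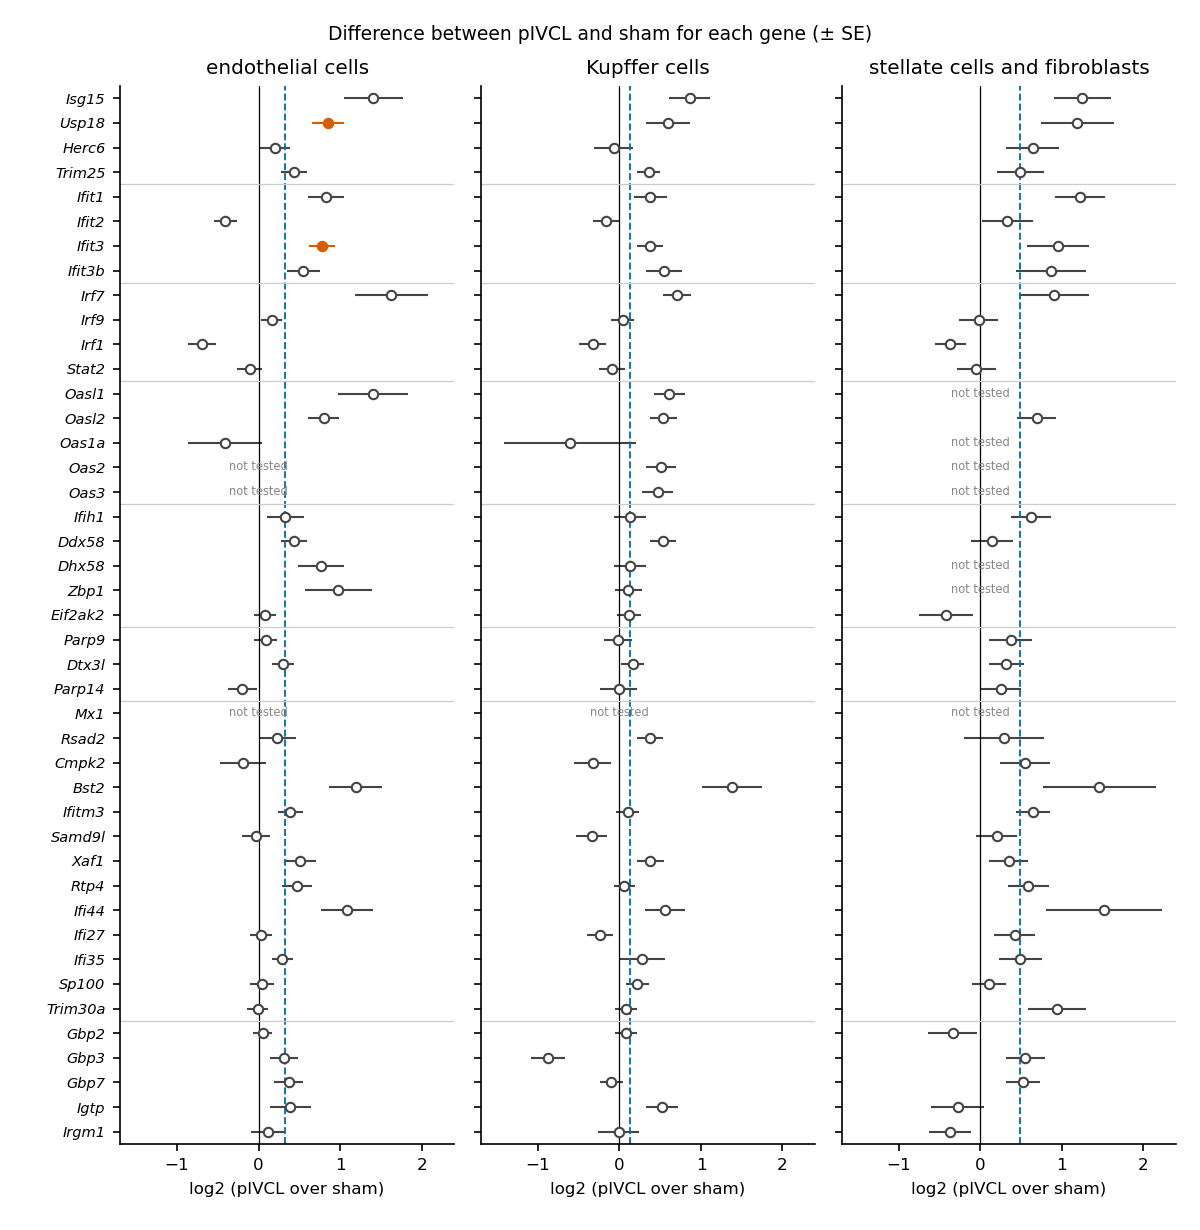
Log2 difference between pIVCL and sham (x axis, points with SE bars, 2 sham and 3 pIVCL libraries) for each of the 43 genes (y axis, grouped by role) in 3 classes. Filled orange points passed at an adjusted p of 0.05, Ifit3 and Usp18 in endothelial cells, and the dashed line is the median of the tested genes, 0.32 in endothelial cells, 0.13 in Kupffer cells and 0.49 in stellate cells with fibroblasts.

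The median difference over the 40 tested genes in endothelial cells was 0.32 (log2), with 32 above 0, beside 0.00 over all 11347 genes tested. All 3 pIVCL libraries were above both sham libraries for 18 of 40 genes (45%), against 21.2% of all genes tested, and below both for 2 (5%, Irf1 and Ifit2), against 22.4%. These counts are a description of the list and hold only the genes that passed the filter on low counts.

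**Figure D3:**
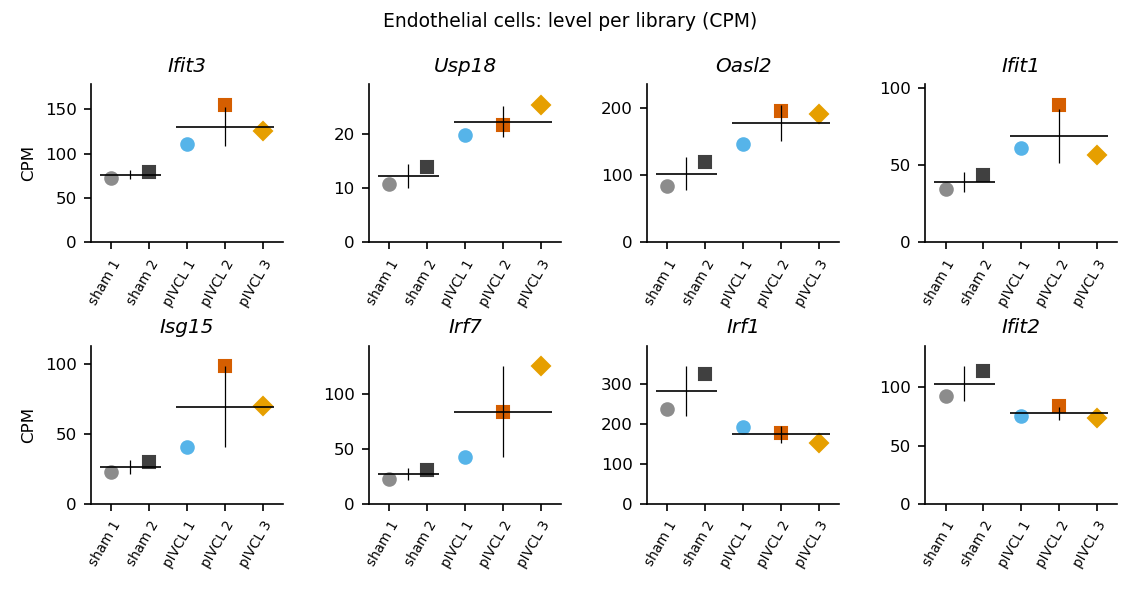
Endothelial level in CPM (y axis, from 0) of 8 genes in each of the 5 libraries (x axis), with the mean of each group as a line and its SD as a bar. Ifit3, Usp18, Oasl2, Ifit1, Isg15 and Irf7 lie higher in all 3 pIVCL libraries, with pIVCL 1 the nearest to sham except for Ifit1, and Irf1 and Ifit2 lie lower.

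Set against sham within batch 2021.3, pIVCL 1 showed part of this pattern in endothelial cells. It was above both sham libraries for 23 of 40 genes (57.5%, against 40.2% of all genes tested) and below both for 7 (17.5%, against 40.5%). In that fit Ifit3 (0.55 ± 0.13, adjusted p = 0.0305) and Ifit1 (0.64, adjusted p = 0.0474) passed among 41 genes tested (4.88%, against 3.39% of all genes), and 0 were lower, against 4.11%. Usp18 was at 0.69 (adjusted p = 0.0917), Isg15 at 0.63 (adjusted p = 0.0710) and Irf7 at 0.67 (adjusted p = 0.0654). Only 1 pIVCL library stands behind these values, and its spread was taken to be that of the 2 sham libraries.

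A further difference lay between the batches within pIVCL. Both pIVCL 2 and pIVCL 3 were above pIVCL 1 and sham for 21 of 40 genes (52.5%, against 21.9% of all genes) and below them for 2 (5%, against 23.6%). With batch as a term, 3 genes were higher in batch 2021.7 than in 2021.3 within pIVCL, Bst2 (0.97, adjusted p = 0.0302), Ifih1 (0.76, adjusted p = 0.0349) and Oasl1 (1.42, adjusted p = 0.0471), which is 7.5% of 40 against 0.820% of all genes. Isg15 and Irf7 differed by 1.06 (adjusted p = 0.0582) and 1.27 (adjusted p = 0.0655) and did not pass. In the same fit none of the 40 genes passed between pIVCL and sham, against 1.52% of all genes called higher and 1.39% lower, and Ifit3 was at 0.55 (adjusted p = 0.0975). Without pIVCL 1, 20 genes were called higher and 2 lower (Irf1 and Oas1a), against 11.2 and 12.1% of all genes, and in that fit batch and surgery cannot be told apart.

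The endothelial class was made of different clusters in the groups. Clusters 7 and 10, with Wnt2, Kit, Adam23 or Dnase1l3 among their leading genes, held 32.2 and 32.9% of sham endothelial cells on average, and 2.20 and 0.524% of pIVCL cells. Cluster 12 (leading genes Esm1, Lyve1 and Angpt2) held 0.880% of sham and 52.1% of pIVCL cells, and cluster 21 (Ntn4, Efnb2 and Dll4) 5.32 and 19.6%. Cluster 21 had the highest sums of the 43 genes among the endothelial clusters with 20 or more cells in a library: 55.2 and 72 per 10000 in sham and 70.8, 88 and 92.5 in pIVCL. In that cluster pIVCL 1 lay below sham 2. In cluster 11, which held 16.6% of sham and 13.3% of pIVCL cells, the sums were 45.5 and 57.1 in sham and 57.6, 74.1 and 77.4 in pIVCL. In cluster 12 they were 46.8 and 57 in sham (21 and 23 cells) and 55.1, 73.8 and 78.8 in pIVCL. In these 3 clusters the libraries of batch 2021.7 were the highest, and pIVCL 1 was below sham 2 or less than 1 molecule per 10000 above it. The order was alike in cluster 18, at 41.7 and 60.9 in sham and 57.1, 62.8 and 68 in pIVCL, with pIVCL 1 below sham 2. Other clusters went another way. In pIVCL 1 the sum was above both sham libraries in cluster 7 (49.7 and 57.7 in sham, 61.9 in pIVCL 1 from 83 cells) and in cluster 10 (41.5 and 50.7 in sham, 60.6 in pIVCL 1 from 20 cells). In cluster 14 it was at 54.4 and 60.2 in sham and 66.8, 75.7 and 62.9 in pIVCL, so that pIVCL 3 was below pIVCL 1.

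Taken cluster by cluster, Ifit3 differed by 0.89 in cluster 11, 0.15 in cluster 12, 0.60 in cluster 14, 0.29 in cluster 18 and 0.77 in cluster 21, and passed in none of them (adjusted p = 0.110 to 0.932). Among the 43 genes only Bst2 in cluster 18 passed (1.55) in these 5 fits, each of which rests on fewer cells than the class. The share of all genes called in these fits is not given here. Markers of some other cells were higher in every pIVCL library. The hepatocyte list, all 12 of its genes detected, was at 1.9 to 3.52 molecules per 10000 in sham and 6.07 to 7.21 in pIVCL endothelial cells. The mesothelial list, all 5 detected, was at 0.17 to 0.178 in sham and 0.681 to 1.38 in pIVCL. The Kupffer list, all 11 detected, was at 0.931 and 1.11 in sham, and higher in each pIVCL library, up to 2.61 in pIVCL 3. The stellate and fibroblast, B cell, plasmacytoid dendritic cell and neutrophil lists were also higher in every pIVCL library. The erythroid list, all 5 detected, went with the batch label instead, at 1.25 and 0.22 in sham, 0.605 in pIVCL 1, and 3.41 and 12.7 in pIVCL 2 and 3. The endothelial list itself was lower in every pIVCL library, at 306 and 289.8 in sham and 266, 252 and 234 in pIVCL. Endothelial depth was 4921 to 5149 molecules per cell in sham and 4125 to 4491 in pIVCL (medians). Their part in the differences was not tested.

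**Figure D4:**
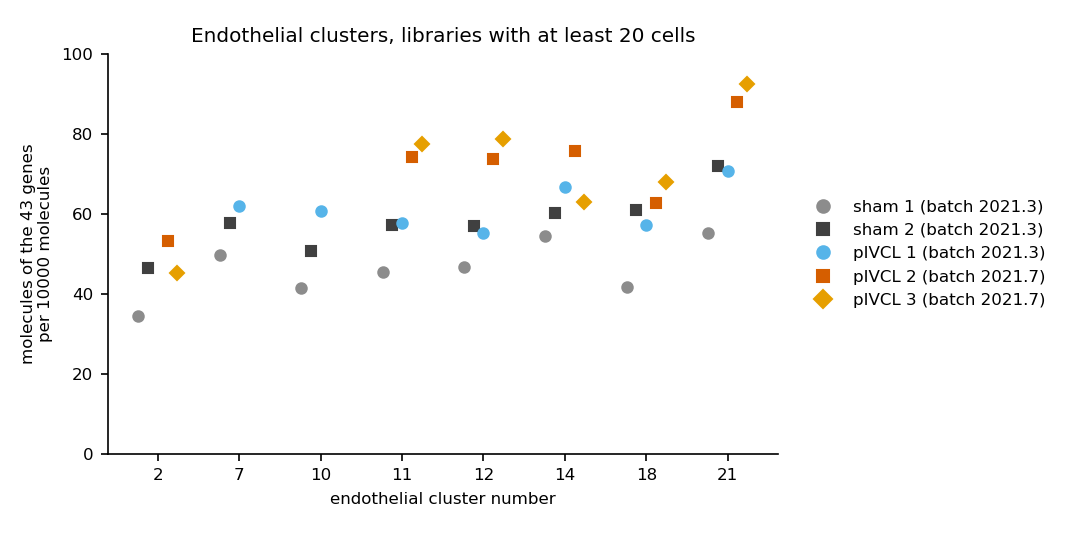
Molecules of the 43 genes per 10000 molecules (y axis) in each endothelial cluster (x axis, cluster number), 1 point per library with at least 20 cells in that cluster. In clusters 11, 12 and 21 the orange points of batch 2021.7 lie above all others, between 73.8 and 92.5, and pIVCL 1 lies within 1 molecule of sham 2 or below it. Cluster 18 has the orange points highest too, at 62.8 and 68, with pIVCL 1 at 57.1 below sham 2 at 60.9.

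In Kupffer cells, the resident macrophages of the sinusoid, none of the 42 tested genes rose or fell in edgeR's test, against 0.156% of 9638 genes called higher and 0.125% lower. At an unadjusted p under 0.05, 16 were higher and 1 lower, against 7.82 and 7.42% of all genes. DESeq2 called 2 higher (Bst2 and Irf7, 4.76%), against 0.757% of all genes. The median difference was 0.13 (log2), with 29 of 42 above 0, beside 0.01 over all genes. All pIVCL libraries were above sham for 13 of 42 genes (31.0%, against 15.5% of all genes) and below for 5 (11.9%, against 16.4%).

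Irf7 had the lowest p in this class. It was at 304 and 317 CPM in Kupffer cells of sham and 399.9, 521 and 597 CPM in pIVCL, without overlap (0.71 ± 0.17, adjusted p = 0.103). Next was Gbp3, a GTPase, in the opposite direction, at 131 and 178 CPM in sham and 107, 63.1 and 83.5 CPM in pIVCL (-0.88 ± 0.21, adjusted p = 0.110). Isg15 was at 25.4 and 45.2 CPM in sham and 49.8, 66.6 and 70.7 CPM in pIVCL (0.86, adjusted p = 0.172). The oligoadenylate synthetase group was detected in full, with Oasl2, Oasl1, Oas2 and Oas3 at 0.54, 0.61, 0.51 and 0.47, each without overlap between the groups, and Oas1a at -0.61. Ddx58 differed by 0.53, Igtp, another GTPase, by 0.52, Trim25 by 0.36 and Ifit3b by 0.55, while Ifit3 and Ifit1 differed by 0.37 and 0.38.

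In Kupffer cells pIVCL 1 did not lie to one side of the sham libraries. It was above both for 14 of 42 genes (33.3%, against 39.2% of all genes) and below both for 16 (38.1%, against 39.6%). Within batch 2021.3 Bst2 passed upward (0.58, adjusted p = 0.0294, 2.38% of 42 genes against 0.886% of all genes). Cmpk2, a mitochondrial nucleotide kinase, and Samd9l passed downward (-1.02 and -0.87, adjusted p = 0.0235 and 0.00435, 4.76% against 0.809%). The libraries of batch 2021.7 were both above pIVCL 1 and sham for 23 of 42 genes (54.8%, against 18.3% of all genes). Ifit3b shows this in values, at 41.1 and 41.4 CPM in sham, 40.8 in pIVCL 1 and 75.8 and 61.7 in pIVCL 2 and 3. Without pIVCL 1, 11 of the 42 genes were called higher and 2 lower (Gbp3 and Oas1a), against 3.61 and 4.39% of all genes. Cluster 20, with Cxcl13 among its leading genes, held 6.82% of sham and 27.4% of pIVCL Kupffer cells. It had lower sums than cluster 5 in every library (55.7 and 63.6 against 60.8 and 69 in sham, and 59.7, 71.5 and 73.9 against 65.6, 80.1 and 82.6 in pIVCL). Erythroid molecules were at 0.0796 and 0.406 per 10000 in sham Kupffer cells, 0.556 in pIVCL 1, and 13.7 and 15.3 in pIVCL 2 and 3, all 5 genes detected. The hepatocyte list, all 12 detected, was at 12.5 and 10.5 in sham and 16.3, 20.8 and 19.5 in pIVCL. The conventional and plasmacytoid dendritic cell lists were also higher in every pIVCL library. The part of these molecules in the differences between groups or batches was not tested.

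In stellate cells with fibroblasts, the matrix-producing cells of the liver, none of the 36 tested genes passed in edgeR's test, against 0.837% of 8723 genes higher and 0.516% lower. At an unadjusted p under 0.05, 11 were higher and 0 lower, against 7.8 and 6.99% of all genes. DESeq2 called none, against 1.93% of all genes higher and 1.35% lower. The median difference was 0.49 (log2), with 29 of 36 above 0, beside -0.01 over all genes, and 16 genes (44.4%) had all pIVCL libraries above sham, against 17.9%, and 2 (5.56%) below, against 16.8%. Taken alone, pIVCL 1 was above both sham libraries for 17 genes (47.2%, against 35.4%) and below both for 9 (25%, against 33.1%).

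Ifit1 had the lowest p, at 56.8 and 29.1 CPM in stellate cells with fibroblasts of sham and 79.4, 112 and 112 CPM in pIVCL (1.22 ± 0.31, adjusted p = 0.102). The sham values came from only 32 and 15 molecules. Isg15 was at 46.1 and 42.7 CPM in sham and 64.4, 138 and 115 CPM in pIVCL (1.25 ± 0.35, adjusted p = 0.130). Ifitm3 was at 1584 and 1301 CPM in sham and 2087, 2378 and 2335 CPM in pIVCL, from 671 to 3995 molecules (0.65 ± 0.21, adjusted p = 0.179). These 3 genes were higher in all 3 pIVCL libraries, and for Ifitm3 the step to pIVCL 1 was nearly that to the other libraries. Usp18, Oasl2, Trim30a, Ifih1, Gbp7, Ifit3, Rtp4, Gbp3 and Irf7, also among the 12 of lowest p, differed by 0.52 to 1.19, none with an adjusted p below 0.216. Ifit3 shows how the sham libraries could disagree, at 138 CPM in sham 1 (78 molecules) and 46.5 in sham 2 (24 molecules), against 176, 174 and 190.3 CPM in pIVCL.

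Markers of other cells moved in this class as well. The hepatocyte list, all 12 genes detected, was at 6.19 and 4.41 per 10000 in sham and 21.9, 25.4 and 19 in pIVCL. The endothelial list, all 12 detected, was at 52.1 and 53.4 in sham and 11.1, 42.2 and 46.1 in pIVCL. Their part in the differences was not tested. The sham cells of this class were few (101 and 77, against 305, 334 and 129 in pIVCL). Cluster 3, with Dpt, Lum and Eln among its leading genes, made up 20.8 and 55.8% of them in sham and 5.69 to 15.5% in pIVCL. Its sums of the 43 genes, 23.1 to 34.4 per 10000, were below those of cluster 19 (54.5 to 69.3), led by genes such as Reln and Colec11, in every library. In cluster 19 alone the sums were 56.5 and 60 in sham and 54.5, 60.9 and 69.3 in pIVCL, so pIVCL 1 was then below both sham libraries and pIVCL 2 less than 1 molecule above sham 2. In cluster 19 alone no member passed, and the share of all genes called in that fit is not given here. Within batch 2021.3 none of 35 tested genes passed in the whole class (against 1.89% higher and 2.48% lower). With batch as a term, Bst2 (2.14, adjusted p = 0.000487) and Ifi44 (1.88, adjusted p = 0.00343) were higher in batch 2021.7, 5.56% of 36 against 1.46% of all genes.

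In the monocyte class 1 of 42 genes rose, Ifi44 (2.38%, against 0.203% of 5916 genes), and 0 fell, against 0.101%. It was at 15 and 24.4 CPM in sham and 80.5, 152 and 86.2 CPM in pIVCL, from 5 and 6 and from 27, 108 and 53 molecules. The groups were well apart (2.48 ± 0.45, 5.57-fold, adjusted p = 0.0143), also within batch 2021.3 (2.05, adjusted p = 0.0351). The call was lost without sham 1 (2.13, adjusted p = 0.390) or sham 2 (2.82, adjusted p = 0.0573) and with batch as a term (2.05, adjusted p = 0.204), while the estimate stayed near that size. This class of 441 cells also carried Kupffer markers, all 11 detected, at 88 and 107 per 10000 in sham and 113, 134 and 132 in pIVCL. The hepatocyte list, all 12 detected, was at 11.9 and 9.94 in sham and 13.8, 13.6 and 15.1 in pIVCL. Their part in the rise was not tested. Under the other cell filters and clustering settings a smaller monocyte class of 152 to 195 cells was found, in which Ifi44 had at most 3 molecules per sham library and 0 to 13 per pIVCL library and was not tested. The rise was thus measured in the wider class only. Of the next 3 genes by p, Xaf1 differed by 0.84 (adjusted p = 0.274), Gbp3 by -1.01 (0.295) and Irf7 by 0.84 (0.390).

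Conventional dendritic cells, which take up and present antigen, had sums of 30.3 and 39.9 per 10000 in sham and 36.4, 42.4 and 40 in pIVCL, with overlap. None of 36 genes passed in edgeR's test, against 0.212% higher and 0.357% lower of 7559 genes. At an unadjusted p under 0.05, 3 were higher and 2 lower, against 5.33 and 5.62% of all genes. DESeq2 called 0 of the 36, against 0.251% of all genes higher and 0.331% lower. Gbp2 was lowest in p, in the downward direction, at 73.4 and 146 CPM in sham and 38.8, 30.8 and 58.3 CPM in pIVCL (-1.40 ± 0.36, adjusted p = 0.111). Oasl2, Ifit3 and Irf9 differed by 0.84, 1.40 and 0.53 (adjusted p = 0.278, 0.317 and 0.383). Within batch 2021.3 Gbp2 (-1.50), Gbp7 (-1.59) and Rsad2 (-2.19), the enzyme viperin, passed downward and Oasl2 (1.10) upward. These were 8.11% and 2.70% of 37 genes, against 3.72 and 1.64% of all genes. With batch as a term, none of 36 differed between the batches within pIVCL, against 0.0132% of all genes higher and 0.0265% lower in 2021.7.

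In T cells the sums were 40.5 and 40 per 10000 in sham and 37.5, 55.5 and 37.4 in pIVCL. Only pIVCL 2 was high, and its T cells also held the most endothelial marker molecules, 75 per 10000 against 2.98 to 43.7 in the other libraries, all 12 genes detected. None of 35 genes passed, and edgeR called 0 of 7499 genes in either direction. At an unadjusted p under 0.05, 1 of the 35 was higher and 0 lower, against 2.84 and 1.89% of all genes. DESeq2 called 0 of the 35, against 0.0133% of all genes higher and 0% lower. The gene of lowest p was Irf7, at 22.2 and 25.8 CPM in sham and 52.8, 65.2 and 49.5 CPM in pIVCL (1.22 ± 0.37, adjusted p = 0.962), followed by Oas3 (1.28), Gbp2 (-0.44) and Samd9l (-0.39). In NK cells with ILC1 the sums were 31.7 and 32.1 in sham and 25.6, 37.6 and 34.9 in pIVCL. None of 13 tested genes passed, against 0 of 2900 genes higher and 0.0345% lower. At an unadjusted p under 0.05 the count was 0 of the 13, against 3.59% of all genes higher and 2.86% lower. DESeq2 called 0 of the 13, against 0% of all genes higher and 0.069% lower. The genes of lowest p were Ifi27 (0.67), Ddx58 (0.62), Gbp7 (0.32) and Sp100 (-0.25). At 22 to 77 NK cells per library, 30 of the 43 genes could not be tested.

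Classes with too few cells for a test gave sums only. Plasmacytoid dendritic cells, the professional producers of type I interferon, had 45.8 and 50.1 per 10000 in sham (69 and 72 cells), 44.4 in pIVCL 1 (18 cells) and 67.8 and 66.3 in pIVCL 2 and 3 (60 and 23 cells). Bst2, known as a surface marker of these cells in mice, made up much of this, and without it the sums were 36.2, 40.3, 31.5, 42.2 and 45.5. Hepatocytes that remained after centrifugation had sums of 11.7 to 23.8, and cholangiocytes 17.5 to 27.2. B cells had 22.1 to 30.5, and mesothelial cells 48.2 to 64.2 with full overlap of the groups.

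Whether endothelial cells differed from another class in their response was tested directly, as an interaction with library as a block. Against Kupffer cells 1 of 42 genes passed, Gbp3, which differed by 0.31 in endothelial cells and -0.88 in Kupffer cells. The difference between the classes was 1.26 ± 0.17 (log2, adjusted p = 0.00197). That is 2.38% of the genes, against 1.10% of all genes higher and 0.796% lower. Endothelial Gbp3 was at 37.2 and 51.7 CPM in sham and 55.5, 50.8 and 59.6 CPM in pIVCL, overlapping, while the Kupffer values given above did not overlap. The difference held within batch 2021.3 (0.92, adjusted p = 0.0106) and was above the threshold without sham 1 (1.23, adjusted p = 0.120) or sham 2 (1.28, adjusted p = 0.058). Ifi44 and Gbp7 came next (0.60 and 0.53, adjusted p = 0.0595 and 0.0745), then Ifit3 (0.45, adjusted p = 0.0914). Irf7 differed by 0.90 ± 0.28 (adjusted p = 0.208) and Isg15 by 0.56 ± 0.23 (adjusted p = 0.316). Against stellate cells with fibroblasts, dendritic cells, the monocyte class, NK cells and T cells, none of the 41 or 42 genes passed. Of all genes, 0.949% were called higher and 0.906% lower against stellate cells with fibroblasts, and 0.116 and 0.0445% against dendritic cells. Against the monocyte class these shares were 0.164 and 0.0546%, against NK cells 0.559 and 0.0372%, and against T cells 0 and 0%. Apart from Gbp3, the genes were thus not shown to respond differently in endothelial cells and these classes.

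Bst2 and Oas1a were singled out because their levels went with the batch label in several classes, in opposite directions. Bst2 was at 299.5 and 366 CPM in sham endothelial cells, 464 in pIVCL 1, and 1009 and 809 in pIVCL 2 and 3. In Kupffer cells the values were 135, 164, 222, 503 and 439 CPM in the same order. Stellate cells with fibroblasts had 99.3, 128, 96.3, 452 and 394 CPM, and pIVCL 1 was below both sham libraries there. In each of these 3 classes Bst2 was higher in batch 2021.7 than in pIVCL 1 (0.97, 1.08 and 2.14 on the log2 scale, adjusted p = 0.0302, 0.0103 and 0.000487). Oas1a, one of several closely related synthetase copies in the mouse that reads could confuse, went the other way. It was at 8.34 and 12 CPM in sham endothelial cells, 12.9 in pIVCL 1 and 4.94 and 4.39 in pIVCL 2 and 3 (-1.45 between the batches within pIVCL, adjusted p = 0.0507, not passing). In Kupffer cells it was at 29.1, 48.8, 56.7, 12.7 and 12 CPM (-2.20 between the batches, adjusted p = 0.0190), which passed, and in the monocyte class at 30.1, 36.5, 59.6, 15.5 and 13 CPM (-2.04, adjusted p = 0.276, not passing). In these 3 classes pIVCL 1 had the highest Oas1a and the libraries of batch 2021.7 the lowest.

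**Figure D5:**
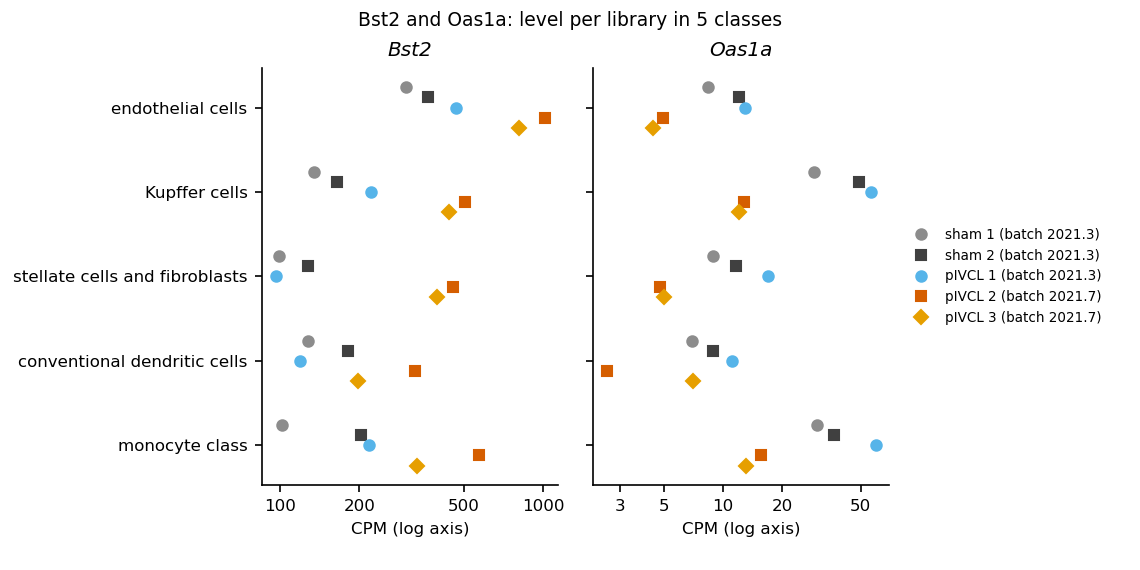
Level of Bst2 (left) and Oas1a (right) in CPM (x axes, log scale) in 5 classes (y axis), 1 point per library. For Bst2 the orange points of batch 2021.7 lie highest in every class shown, and for Oas1a they lie lowest in every class except that pIVCL 3 and sham 1 nearly coincide in dendritic cells, where 2 to 5 molecules stand behind each point.

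The ligands were almost absent from these cells. Of 12 interferon genes listed, 8 were in no file, and the type I and III genes had 3 molecules in all retained cells (1 of Ifna12 and 2 of Ifnl2). Ifng, the gamma interferon of T and NK cells, had 20 and 43 molecules in sham and 13, 23 and 13 in pIVCL. In NK cells with ILC1 it differed by -0.34 and in T cells by -0.83 (adjusted p = 0.982 and 0.962). The receptors were present in endothelial cells without a difference that passed. Ifnar1 was at 43.2 and 46.7 CPM in sham and 46.2, 55.1 and 59.0 CPM in pIVCL (0.25, adjusted p = 0.342) and Ifnar2 differed by -0.02. Ifngr1 differed by -0.07, and Ifngr2 was below sham in every pIVCL library, at 102 and 100 CPM against 78.4, 78.8 and 76.6 (-0.38, adjusted p = 0.0969). Ifnlr1, the type III receptor, had 1 endothelial molecule in all.

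Of 7 genes listed under JAK-STAT signalling and tested in endothelial cells 2 rose and none fell, against 2.51 and 2.63% of all genes. They were the kinase Jak1 and the transcription factor Irf8, which is on this list but is not itself a part of the relay. Jak1, the kinase shared by all 3 interferon receptor types, was at 1376 and 1459 CPM in sham and 2144, 2441 and 2279.5 CPM in pIVCL (0.69 ± 0.14, adjusted p = 0.0321). Irf8, a transcription factor of the same family as Irf1 and Irf7, was at 65.8 and 81.8 CPM in sham and 128, 201 and 153 CPM in pIVCL (1.13 ± 0.21, adjusted p = 0.0258). In single clusters both passed in cluster 18 only (Jak1 1.62 and Irf8 4.99, adjusted p = 2.62e-05 and 3.12e-05), of 5 clusters tested for Jak1 and 4 for Irf8. Cluster 18 was small, with 38 and 22 cells in sham and 63, 56 and 53 in pIVCL. In the other clusters tested Jak1 differed by 0.15 to 0.52 and Irf8 by 0.75 to 0.90. In the whole class Jak1 and Irf8 had all pIVCL libraries above sham. Within batch 2021.3, where pIVCL 1 was the only pIVCL library, Jak1 was at 0.59 and Irf8 at 0.79. Both calls were lost with batch as a term (adjusted p = 0.0706 for Jak1 and 0.0639 for Irf8). They were also lost without pIVCL 2 (adjusted p = 0.0930 and 0.0604) or pIVCL 3 (0.0671 for each). Both held without pIVCL 1 (adjusted p = 0.00345 and 0.00102). With a replicate block Irf8 passed (adjusted p = 0.00781) and Jak1 did not (adjusted p = 0.100). Without sham 1 or sham 2 Jak1 was at 0.64 and 0.73, and Irf8 at 0.97 and 1.28. A lone sham library is left in these fits, so only the estimates are given, and they do not show that the calls held.

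Among targets outside the list of 43, none of 39 further type I targets tested in endothelial cells passed (27 above 0, median 0.24). Of all genes tested, 2.51% were called higher and 2.63% lower. All pIVCL libraries were above sham for 9 of these 39 and below sham for 4, against 21.2 and 22.4% of all genes tested. Of 16 interferon-gamma targets 1 rose and 2 fell (median 0.03), against 2.51 and 2.63% of all genes. Cxcl9, a chemokine that attracts T cells, was at 211 and 310.1 CPM in endothelial cells of sham and 587, 979 and 754 CPM in pIVCL (1.57 ± 0.26, adjusted p = 0.0193). Gbp4, a GTPase, was at 89.2 and 107 CPM in sham and 41.9, 42.7 and 46.7 CPM in pIVCL, a fall in every pIVCL library (-1.17 ± 0.13, adjusted p = 0.00504). Cd274, the checkpoint ligand PD-L1, fell from 22.3 and 27.6 CPM to 11.6, 15.2 and 14.8 CPM (-0.85 ± 0.19, adjusted p = 0.0429). Against sham of batch 2021.3, pIVCL 1 alone put Gbp4 at -1.23, Cd274 at -1.11 and Cxcl9 at 1.17. Cd274 and Cxcl9 lost their calls without pIVCL 2 (adjusted p = 0.0946 and 0.0527) or pIVCL 3 (0.0985 and 0.0515). Cd274 was also above the threshold under the stricter cell filter (0.0944) and when replicate number was blocked (0.066). Cd274 and Cxcl9 held without pIVCL 1 (0.0154 and 0.00133) and with batch as a term (0.032 and 0.0472). Gbp4 held without pIVCL 2 or pIVCL 3 (0.0328 and 0.0195). Without sham 1 or sham 2 Gbp4 was at -1.3 and -1.04, Cd274 at -1 and -0.7, and Cxcl9 at 1.31 and 1.86. These fits leave a lone sham library, so only their estimates are given, and they do not show that the calls held. These class values compare different mixtures of clusters. Within single clusters Cxcl9 was between -0.39 (cluster 18) and 0.40 (cluster 21) and passed in none of 5. Gbp4 passed in cluster 18 (-1.46, adjusted p = 0.0157) and was at 0.14 in cluster 12, and Cd274 was at 0.43 in cluster 12 and passed in none of 3. In Kupffer cells none of the 89 tested pathway genes passed, against 0.156% of all genes called higher and 0.125% lower. In stellate cells with fibroblasts Ifi27l2a rose (1.18, adjusted p = 0.0329) and H2-Aa fell (-1.65, adjusted p = 0.0215) among 74, and in dendritic cells Cxcl10 fell (-2.22, adjusted p = 0.0213) among 77. Of all genes, 0.837% were called higher and 0.516% lower in stellate cells with fibroblasts, and 0.212 and 0.357% in dendritic cells. In cluster 19 alone neither Ifi27l2a (0.74, adjusted p = 0.187) nor H2-Aa (-0.60, adjusted p = 0.872) passed. The Cxcl10 call was lost with batch as a term (-1.42, adjusted p = 0.378), with members in the clustering (-1.79, adjusted p = 0.648), at resolution 2 (-1.88, adjusted p = 0.606) and without sham 1 (-2.28, adjusted p = 0.0524). Markers of other cells moved both ways in dendritic cells. The endothelial list, all 12 genes detected, was at 54.7 and 62.3 per 10000 in sham and 17.7, 36.3 and 6.63 in pIVCL. The plasma cell list, all 5 detected, was at 10.3 and 8.55 in sham and 0.0798, 1.75 and 0.0715 in pIVCL. The B cell and T cell lists were also lower in every pIVCL library. The hepatocyte list, all 12 detected, was at 5.64 and 3.12 in sham and 10.6, 19.2 and 10 in pIVCL. The Kupffer, monocyte, neutrophil, NK cell and mesothelial lists were also higher in every pIVCL library. Their part in the fall was not tested.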

How the data were processed

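Single-cell RNA was measured in 5 libraries. Each deposited table holds, for every cell, a count of molecules of each gene, corrected by the pipeline for errors in the identifiers and made with version 1.9.1 of the BD Rhapsody whole-transcriptome pipeline per the file headers, on GRCm39 per the submitters' processing notes. Which aligner and annotation served is not given in the sources used here.

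Cells with at least 500 molecules, 200 genes and at most 25% mitochondrial molecules were kept (17188), and the 3% with the highest Scrublet score per library were removed, leaving 16672. Clustering in scanpy 1.11.5 used 2000 variable genes without the 43 members and 108 other pathway genes, 30 components, 20 neighbours and Leiden resolution 1, with no integration and no correction for free RNA. A cluster was named from at least 3 markers found in 25% of its cells at 2-fold over other classes. It stayed unnamed where a second class had 75% of its list (this limit was chosen with the clusters in view), and 5 clusters with 1128 cells stayed out, with sums of 51.4 and 65.5 per 10000 in sham and 59.8, 75.1 and 74.6 in pIVCL.

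Molecules were summed per class and library and compared with edgeR 4.0.16 (quasi-likelihood, TMM, filterByExpr, robust), adjusted by Benjamini-Hochberg over all genes tested in a class. CPM are TMM-scaled, errors of differences are SE and of group means SD. Alternatives were DESeq2 1.42.0, its size factors, no filter, batch as a term, batch 2021.3 alone, a replicate block, each library left out, other cell filters, clustering with the members, resolution 2 and, added after the data were seen, single clusters and sums without Ifitm3 or Bst2. The gene test was checked on simulated data. Changes of 1.5-fold were recovered in 0 to 22.4% of cases, by class. Changes of 2-fold were recovered in 70.1% in endothelial cells, 65.7% in Kupffer cells and 8.96 to 29.9% in the other tested classes. A gene that did not pass may therefore still differ. False calls were 10 of 127 in endothelial cells, 6 of 126 in Kupffer cells, 7 of 81 in dendritic cells and 4 of 44 in T cells. With 2 against 3 libraries an exact permutation has 10 splits, and none was used.

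The members, lists and markers were chosen with earlier results of these data known. Named with values were members that passed, the 12 members of lowest p in endothelial, Kupffer and stellate cells with fibroblasts, the 4 of lowest p in other classes, pathway genes that passed, receptors and ligands. The results of 1 pathway gene are not reported here. Oas1a, Gbp3 in endothelial cells and the other members named were chosen after their values were seen.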

Additional observations from a re-analysis of the deposited data

Results flagged for a closer look

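In 8 cases the difference between pIVCL and sham was not the same in endothelial cells as in another class, by the interaction test with library as a block (log2, endothelial minus other). Against Kupffer cells these were Gbp3 (1.26, adjusted p = 0.00197) and Irf8 (0.80, adjusted p = 0.0127). Gbp3 is a member of the list, and Irf8 is a transcription factor that differed by 1.13 in endothelial cells and 0.38 in Kupffer cells.

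Against stellate cells with fibroblasts the antigen-presentation genes Cd74 (2.17), H2-Aa (2.59) and H2-Ab1 (2.75) differed between the classes, as did Irf8 (1.62) and Lgals3bp (-0.79). In stellate cells with fibroblasts the estimates were -1.59 for Cd74, -1.65 for H2-Aa and -2.09 for H2-Ab1, and in endothelial cells 0.61, 0.93 and 0.55. Against dendritic cells Cxcl10 differed (2.51), at 0.27 in endothelial and -2.22 in dendritic cells. For these genes the cell filter matters: with doublets kept, H2-Aa in stellate cells with fibroblasts was at -0.01 and Cxcl10 in dendritic cells at -1.17, neither passing. In cluster 19 alone H2-Aa was at -0.60 (adjusted p = 0.872), and cluster 3 held 38.3% of the class in sham and 10.5% in pIVCL.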

How the results depend on the processing

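Counts of called members moved with the processing. In endothelial cells, where 2 were higher and 0 lower, 9 were higher and 1 lower without the filter on low counts (4.43 and 4.77% of all genes) and in DESeq2 (4.99 and 4.33%), and 0 were higher with batch as a term (1.52%). Leaving out 1 library gave 0 to 20 higher and 0 to 2 lower, the maximum without pIVCL 1 (11.2 and 12.1%). In clusters 11, 12, 14 and 21 alone 0 were higher, and in cluster 18 alone 1. Shares of all genes are not given here for single clusters, other cell filters, resolution 2 or clustering with the members. In Kupffer cells, at 0 and 0, no filter gave 4 higher and 1 lower (1.42 and 1.58% of all genes), DESeq2 2 higher (0.757%), batch 2021.3 alone 1 higher and 2 lower (0.886 and 0.809%), and leaving out 1 library 0 to 11 higher and 0 to 2 lower (3.61 and 4.39% without pIVCL 1). In stellate cells with fibroblasts no filter gave 3 higher (2.09%) and leaving out 1 library 0 to 5 (2.53% without pIVCL 1). In dendritic cells batch 2021.3 alone gave 1 higher and 3 lower (1.64 and 3.72%), no filter (1.21%) and resolution 2 each gave 1 lower, and leaving out 1 library 0 to 1 lower. In the monocyte class, at 1 higher, no filter gave 2 higher (0.496%), and 0 were higher with batch as a term, with members in the clustering, with the stricter cell filter, with doublets kept and at resolution 2, where the class was smaller. Leaving out 1 library gave 0 to 1, and batch 2021.3 alone gave 1 lower (0.956%). The interaction against Kupffer cells, at 1, gave 0 to 7 when 1 library was left out (2.44% without pIVCL 1). The causes were not tested, beyond the number of libraries or cells each alternative leaves.

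The summed difference per 10000 molecules was smaller in batch 2021.3 alone: 8.15 in endothelial cells, 0.411 in Kupffer cells and 6.43 in stellate cells with fibroblasts. Over all libraries it was 19.3, 10.5 and 14.4 in these classes. Without Ifitm3 the difference over all libraries was 7.68 in stellate cells with fibroblasts. Signs turned in 13 single-gene alternatives. In endothelial cluster 12 alone these were Ifit2 (0.56), Trim25 (-0.04), Gbp4 (0.14) and Cd274 (0.43), in cluster 18 alone Cxcl9 (-0.39), and in Kupffer cluster 20 alone Oas3 (-0.53). In Kupffer cells Ifit3b was at -0.01 with batch as a term and -0.02 in batch 2021.3 alone. In the monocyte class Irf7 was at -0.14 with members in the clustering, -0.13 with the stricter filter, -0.16 with doublets kept and -0.01 at resolution 2, and Sp100 in NK cells was at 0.02 with doublets kept. Of the other single-gene alternatives 854 kept direction and side of the threshold, 84 lost and 62 gained a call.

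Replicate numbers are shared by the groups. Across endothelial genes, deviations from the group means correlated at r = -0.107 for sham 1 with pIVCL 1 and -0.0324 for sham 2 with pIVCL 2. These values cannot show whether the libraries were paired. The deviations of the 2 sham libraries mirror each other, and pIVCL 1 and pIVCL 2 also differ in batch label. With a replicate block 7 members were higher in endothelial cells (1.69% of all genes), 1 lower in dendritic cells (1.69%) and 2 higher in the monocyte class (0.609%). Ifit3 was among the 7 (0.79, adjusted p = 0.0441) and Usp18 was not (0.76, adjusted p = 0.123). In NK cells with ILC1 only 13 members had enough molecules to be tested.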
